A study of Mus musculus with 48 samples.

Results

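Enteric neurons and glia are the nerve cells of the gut wall and their supporting cells. Here 8 genes listed for these cells were followed in the small intestine of mice from birth to week 4. Which cells the RNA of each gene came from was not tested. The genes were listed by symbol, with earlier results of these data known: Ret, Elavl4, Tubb3, Chat, Nos1, Vip, Sox10 and S100b. Each symbol matched 1 of the 54532 gene identifiers counted, and 8 of 8 passed the filter on low counts that left 21986 genes for testing. RNA was taken from C57Bl/6J mice of both sexes, with no treatment and no engineered allele in any group, from 2 cm of duodenum at the stomach outlet or 2 cm of ileum at the caecum. There were 16 groups, each region at 8 ages (day 0, 2, 4, 6 and 8, week 2, 3 and 4), and 3 samples were labelled in each. The labels describe the tissue as whole thickness and the housing as standard germ-free, and say that pups were weaned from the dam to chow at day 21. They do not say whether a duodenum and an ileum sample came from the same mouse, or whether the samples of a group came from separate mice, so p-values here measure the spread between these samples.

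The enteric nervous system forms from neural crest cells that enter the gut before birth and migrate along it. Ret is the receptor tyrosine kinase through which glial cell line-derived neurotrophic factor (GDNF) drives that migration, and loss of Ret function is a known cause of Hirschsprung disease, in which distal gut lacks neurons. Elavl4 encodes the neuronal RNA-binding protein HuD, and Tubb3 a tubulin of neurons. Chat makes acetylcholine, the main excitatory transmitter of gut motor neurons, while Nos1 makes nitric oxide and Vip encodes vasoactive intestinal peptide, both signals of inhibitory motor neurons. Sox10 is the transcription factor kept by crest progenitors and glia, and S100b a calcium-binding protein used as a glial marker.

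Estimated counts summed to between 16824021 and 65042327 per library. The samples labelled duodenum day 6 number 3 and ileum day 6 number 3 stood apart from their groups and were left out of every fit, which leaves 46 samples and 2 in each day 6 group. With all 48 samples scaled together, the proximal gut gene Pdx1 read 0.115 CPM (estimated counts scaled to library size) in that duodenum library and 14.6 CPM in that ileum library, and the ileal bile acid-binding gene Fabp6 read 1.98 and 0.0 CPM. The neuron and glia genes crossed in the same way: Ret read 65.8 CPM in the library labelled duodenum and 12.02 in the one labelled ileum, and S100b read 2.84 and 16.2 CPM. Markers of the outer wall were low beside those of epithelium. The smooth muscle myosin gene Myh11 had group means of 1.27 to 8.78 CPM in duodenum and 6.88 to 39.6 CPM in ileum. Summed over 10 smooth muscle genes, duodenum samples ran from 126.6 to 412.5 CPM and ileum samples from 234.5 to 520.4 CPM. By the same measure 8 epithelial genes summed to between 3120 and 11685 CPM in every sample. In such bulk RNA, fewer cells of a type and less RNA per cell cannot be told apart.

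Most of these genes were rare. Scaled by exonic length, Ret had group means from 0.826 to 16.4 CPM per kb of exon and S100b from 0.115 to 12.3 CPM per kb. Ret was above S100b in all 8 ileum groups, whereas S100b was above Ret in 5 of 8 duodenum groups, from day 2 to week 2, for example at 12.3 against 4.00 CPM per kb at day 4. The other genes stayed below 1 CPM per kb in every group. Their highest group means were 0.557 for Elavl4, 0.309 for Tubb3, 0.276 for Sox10, 0.22 for Vip, 0.211 for Chat and 0.118 for Nos1. The lowest were 0.0291 CPM per kb for Elavl4, 0.00258 for Nos1 and 0.0 for Vip. Ret held 101 to 5023 counts per sample and S100b 1 to 849, whereas no other gene of the 8 exceeded 153 counts in any sample.

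**Figure D1:**
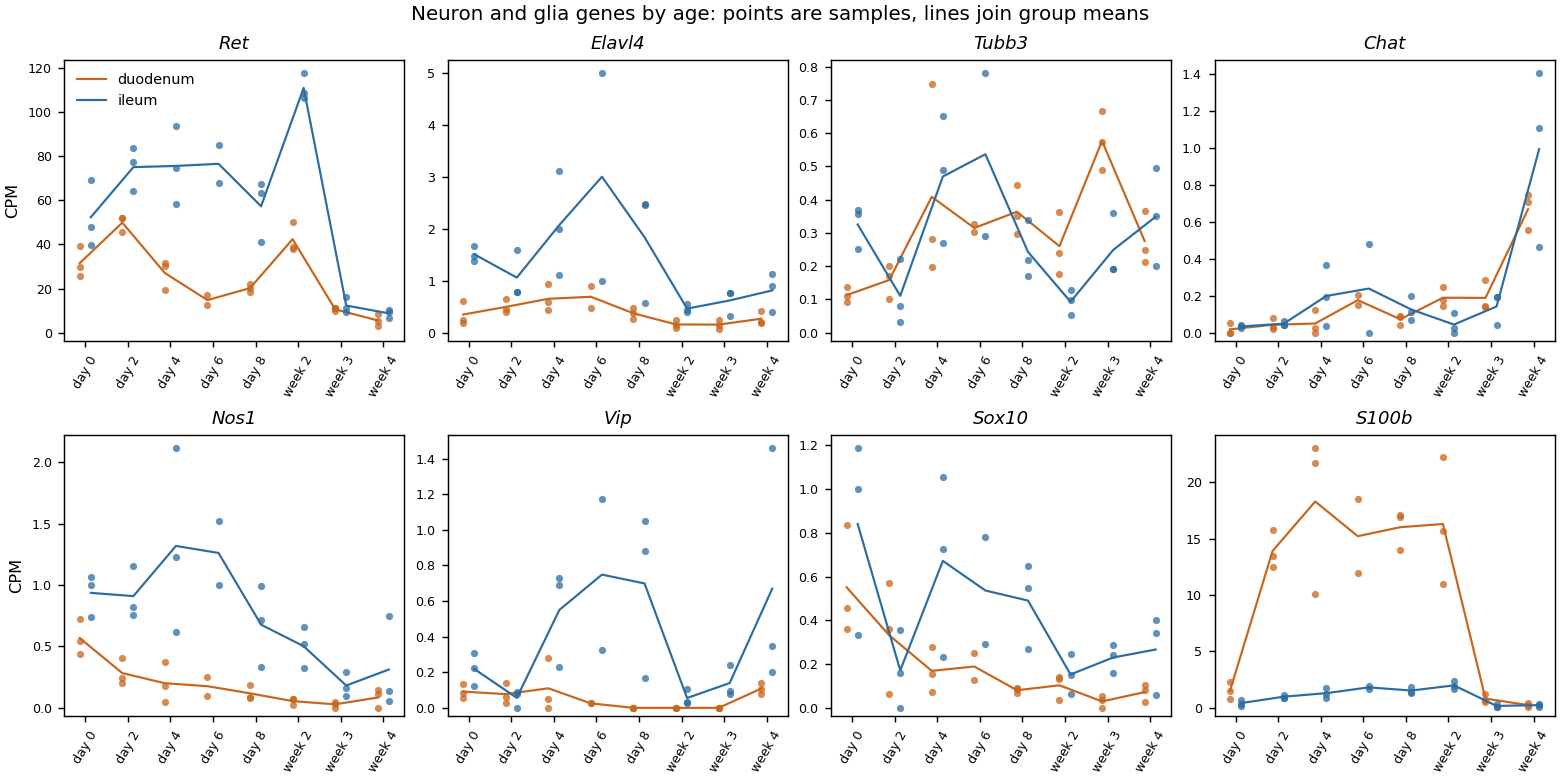
CPM of the 8 genes in each of the 46 samples by age (points; orange duodenum, blue ileum), with lines joining group means; each panel has its own linear axis. Ret and S100b fall to low levels by week 3, Chat is highest at week 4, and Elavl4, Nos1, Vip and Sox10 lie mostly higher in ileum.

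Every one of the 8 genes varied with age in the duodenum, where 67.4% of all genes tested did, and all 8 varied in the ileum, where 58.7% did (edgeR quasi-likelihood test over 8 ages, adjusted p under 0.05). Between week 4 and day 0, 5 of 8 changed in the duodenum, 1 higher and 4 lower, against 40.5% of all genes (20.4% higher, 20.1% lower). In the ileum 2 of 8 changed over the same span, 1 higher and 1 lower, against 41.9% of all genes (21.5% higher, 20.4% lower). Between day 8 and day 0, 6 of 8 changed in the duodenum, 2 higher and 4 lower, against 41.2% (22.0% higher, 19.2% lower). Over the same days 1 of 8 rose and 0 fell in the ileum, against 19.3% (8.56% higher, 10.7% lower). From week 2 to week 3, which ends at the change from dam to chow, 2 of 8 fell and 0 rose in each region. The shares of all genes were 18.3% in duodenum (10.6% lower, 7.7% higher) and 26.8% in ileum (13.9% lower, 12.9% higher). From day 8 to week 4, 4 of 8 changed in duodenum, 2 in each direction, against 42.3% of all genes (18.5% higher, 23.8% lower). In ileum 3 of 8 changed, 1 higher and 2 lower, against 35.2% (17.9% higher, 17.3% lower).

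Regional differences lay mostly on the side of the ileum. Averaged over the 8 ages, 6 of 8 genes differed between ileum and duodenum, 5 higher in ileum and 1 lower, against 62.1% of all genes tested (31.9% higher, 30.2% lower). At day 0 alone 2 of 8 differed, Elavl4 higher and S100b lower, against 6.1% of all genes (2.97% higher, 3.14% lower). At day 8 there were 6 of 8, the same 5 higher and 1 lower, against 39.6% (17.1% higher, 22.6% lower). At week 4 there were 3 of 8, all higher in ileum, against 28.4% (14.5% higher, 13.9% lower). The effect of age differed between the regions for 4 of 8 genes, Ret, Tubb3, Vip and S100b, against 22.4% of all genes. With all 48 samples under their labels, 6 of 8 still differed over all ages and 6 of 8 at day 8, but 0 of 8 at day 0 and at week 4, and the interaction held for 1 of 8, S100b. In that fit 4 of 8 changed by day 8 in duodenum and 0 of 8 in ileum, and the age effect in ileum held for 7 of 8.

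The ileum samples all lay above the duodenum samples for 4 of 8 genes at day 0 (13.2% of all genes tested), 3 at day 2 (19.5%) and 3 at day 4 (11.6%). The count was 5 at day 6, with 2 samples a group (36.8%), and 5 at day 8 (26.1%). It was 4 at week 2 (24.7%), 4 at week 3 (16.3%) and 1, Vip, at week 4 (18.5%). Duodenum samples all lay above for S100b at every age but week 4, for Tubb3 at week 2 and week 3, and for Chat at week 2. The shares of all genes on that side were 14.1%, 21.4%, 9.5%, 36.1% and 33.3% at day 0, 2, 4, 6 and 8, then 22.9%, 16.1% and 17.9% from week 2 to week 4. By this count the 8 genes separated the regions least at week 4, when 7 of 8 overlapped.

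Elavl4, the general neuronal gene, was higher in ileum than in duodenum throughout. At day 0 the ileum samples read 1.48, 1.67 and 1.38 CPM and the duodenum samples 0.25, 0.182 and 0.62 CPM. At week 2 they read 0.435, 0.403 and 0.556 CPM in ileum and 0.248, 0.145 and 0.0876 CPM in duodenum. The samples of the 2 regions did not overlap at 7 of the 8 ages, week 4 being the exception. The mean difference over ages was 1.79 ± 0.21 on the log2 scale (SE, edgeR adjusted p = 2.58e-09). Age mattered too, with group means in ileum between 3.00 ± 2.82 CPM at day 6 (SD, n = 2) and 0.464 ± 0.081 CPM at week 2 (SD, n = 3). The 2 ileum samples at day 6 read 4.995 and 1.003 CPM, so that peak is 1 sample. No neighbouring groups in the order of its 16 means were free of overlap.

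Nos1 showed the same regional order and a decline. Ileum samples at day 0 read 0.739, 1.0 and 1.07 CPM, against 0.721, 0.546 and 0.437 CPM in duodenum. By week 3 they read 0.16, 0.0965 and 0.289 CPM in ileum and 0.0, 0.0349 and 0.0514 CPM in duodenum, where the 3 libraries held 3 counts in all. Ileum lay above duodenum without overlap at 7 of 8 ages, and the difference over ages was 2.30 ± 0.27 on the log2 scale (SE, edgeR adjusted p = 1.81e-09). In duodenum Nos1 fell by 2.23 ± 0.68 (log2, SE) between day 0 and day 8 (edgeR adjusted p = 0.00779) and fell by 2.76 ± 0.75 by week 4 (edgeR adjusted p = 0.00286). The ileum change by week 4, -1.41 ± 0.64, did not pass (edgeR adjusted p = 0.0765), but passed without ileum week 4 sample 2, at -3.27 (adjusted p = 0.00309). That sample read 0.745 CPM beside 0.0583 and 0.134 CPM. The antisense gene Gm26995 shares 268 exonic bases with Nos1, and the strand setting of the counting is not given in the sources used here, so reads of that stretch cannot be assigned.

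Vip had a wide regional gap. It had 0 counts in all 9 duodenum samples of day 8, week 2 and week 3, while ileum held 58 counts at day 8, 7 at week 2 and 9 at week 3. At day 8 the ileum samples read 0.88, 0.17 and 1.05 CPM. The ileum count over a floor of 3 counts in the duodenum group was 31.8 at day 8, 2.07 at week 2 and 5.57 at week 3 after scaling, with the ileum count taken as exact. With the counting error of both groups, ileum was at least 25.1-fold higher at day 8, at least 1.28-fold at week 2 and at least 3.67-fold at week 3 (exact 95% limits, counting error only). Ileum and duodenum samples did not overlap at 5 of 8 ages, and the regional test over ages passed (edgeR adjusted p = 9.90e-08). Summed over all ages ileum held 252 counts and duodenum 44, a ratio of 7.87 after scaling (95% interval 5.70 to 11.1, exact, counting error only). At week 4 ileum samples read 0.35, 1.46 and 0.2 CPM, all above the duodenum samples at 0.0782, 0.139 and 0.106 CPM. The level in duodenum was not constant, since day 0 held 9 counts, at least 2.39-fold above day 8, and week 4 held 11, at least 3.35-fold above it (exact 95% limits, counting error only). Both of those changes passed (edgeR adjusted p = 0.016 and 0.00841). The effect of age on Vip differed between the regions (interaction, edgeR adjusted p = 0.0184).

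Sox10, the gene of crest progenitors and glia, was highest at birth. Day 0 samples read 0.333, 1.0 and 1.19 CPM in ileum and 0.36, 0.455 and 0.838 CPM in duodenum, and these overlapped. In duodenum it fell by 2.74 ± 0.78 on the log2 scale by day 8 (SE, edgeR adjusted p = 0.00433) and fell by 2.95 ± 0.83 by week 4 (edgeR adjusted p = 0.00411). Week 3 samples there read 0.0537, 0.0349 and 0.0 CPM, 4 counts in all against 69 at day 0. In ileum the value at week 4 against day 0 was -1.63 ± 0.74 (edgeR adjusted p = 0.0748). Its age effect in ileum passed (edgeR adjusted p = 0.0214) but was lost without ileum day 0 sample 3 (adjusted p = 0.0665), and without ileum day 0 sample 1 the fall by week 4 passed (adjusted p = 0.0412). Over all ages ileum was higher by 1.36 ± 0.29 (log2, SE, edgeR adjusted p = 0.000134), with no overlap of samples at 3 of 8 ages. At day 8 the difference was 2.55 ± 0.79 (edgeR adjusted p = 0.0103), and without ileum day 8 sample 3 it was 2.26 (adjusted p = 0.0505).

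Several regional calls at week 4 and day 0 rested on few samples, unlike those at day 8, where 5 of the 6 calls (all but that of Sox10) passed with each sample left out in turn. At week 4 the calls were Elavl4 (1.57 ± 0.60, edgeR adjusted p = 0.0455), Nos1 (2.08 ± 0.78, adjusted p = 0.0427) and Vip (adjusted p = 0.0245). None of them passed without ileum week 4 sample 2, where the adjusted p values were 0.114, 0.91 and 0.351, nor without duodenum week 4 sample 1, where they were 0.16, 0.193 and 0.0887. Without duodenum week 4 sample 2 the p was 0.0588 for Nos1, without duodenum week 4 sample 3 it was 0.135 for Elavl4 and 0.0709 for Vip, and without ileum week 4 sample 3 it was 0.195 for Elavl4. Elavl4 at day 0 (2.01 ± 0.56, adjusted p = 0.024) was lost without duodenum sample 1 or 2 or ileum sample 1 or 2 of that age (adjusted p = 0.0982, 0.121, 0.0669 and 0.0508).

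Smooth muscle genes had the same regional order. Of all genes tested 62.1% differed between regions over all ages, 31.9% higher in ileum and 30.2% lower, with a median log2 difference of 0.08. Of 10 smooth muscle genes 10 differed, 9 higher in ileum and 1 lower, with a median of 1.62. Their summed level ran from 126.6 to 412.5 CPM in duodenum samples and from 234.5 to 520.4 CPM in ileum samples, most of it from Mylk, which epithelium also makes. Myh11 was higher in ileum by 2.59 ± 0.28 on the log2 scale (SE, edgeR adjusted p = 1.65e-09), Actg2 by 2.44 ± 0.29 and Acta2 by 1.64 ± 0.25. None of these 3 muscle genes was at 0 CPM in any sample. Of 5 genes of interstitial cells of Cajal, the pacemaker cells of gut muscle, 5 were higher in ileum, among them Thbs4 by 3.27 ± 0.25 and Ano1 by 1.36 ± 0.13. Of 8 epithelial genes 4 differed, 1 higher in ileum and 3 lower, which is not above the 62.1% of all genes. The part of muscle layer content in the regional difference of the neuron genes was not tested.

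**Figure D2:**
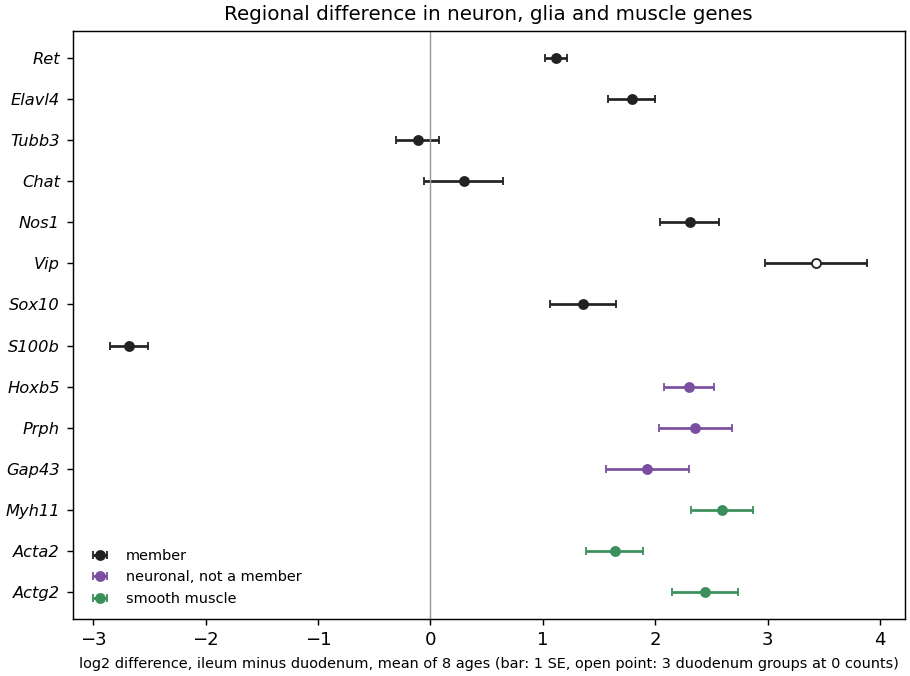
Fitted log2 difference of ileum minus duodenum over the 8 ages with its SE, for the 8 genes (black), 3 other neuronal genes (purple) and 3 smooth muscle genes (green); the open point marks Vip, whose fitted value depends on the small count edgeR adds because 3 duodenum groups are at 0. S100b at -2.68 lies opposite to Elavl4 at 1.79 and Nos1 at 2.30, and the bars of Tubb3 and Chat include 0. The purple genes, Hoxb5, Prph and Gap43, are all higher in ileum. Tubb2b (-2.02) and Rbfox3 (-1.35), higher in duodenum, are among the neuronal genes not drawn.

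The upstream sequences of 3 of these genes are given because Elavl4 and Vip were higher in ileum and S100b was higher in duodenum. RefSeq windows on GRCm38.p6 were found for 6 of the 8 genes by symbol. Each run below is the 250 bases before an annotated start, read 5′ to 3′ on the gene's strand, with capitals for matches on either strand to TGACGTC (cAMP response element core), TATAAA (the core of a TATA box), TTTATG (a core bound by CDX factors) and ACAATG (a core bound by SOX factors).
Elavl4, chr4:110351912-110352161, minus strand: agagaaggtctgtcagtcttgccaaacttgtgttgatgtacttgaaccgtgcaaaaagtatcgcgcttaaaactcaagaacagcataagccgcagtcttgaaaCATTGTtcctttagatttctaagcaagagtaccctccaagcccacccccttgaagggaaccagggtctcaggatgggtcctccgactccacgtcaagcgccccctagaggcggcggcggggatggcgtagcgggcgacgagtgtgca
Vip, chr10:5638968-5639217, plus strand: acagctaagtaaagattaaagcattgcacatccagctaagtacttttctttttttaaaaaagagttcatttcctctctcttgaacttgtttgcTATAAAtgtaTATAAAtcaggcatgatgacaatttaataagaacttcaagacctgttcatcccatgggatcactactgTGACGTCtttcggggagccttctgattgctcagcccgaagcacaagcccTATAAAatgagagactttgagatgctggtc
S100b, chr10:76253586-76253835, plus strand: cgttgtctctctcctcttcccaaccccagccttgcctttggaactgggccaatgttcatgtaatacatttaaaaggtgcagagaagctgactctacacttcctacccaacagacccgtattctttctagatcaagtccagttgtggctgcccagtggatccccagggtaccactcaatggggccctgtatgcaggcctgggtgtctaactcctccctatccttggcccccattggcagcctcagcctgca
The Vip window holds 1 cAMP response element core, whose leading base lies 79 bases before the start, and 3 TATAAA matches, the nearest 30 bases before it. The Elavl4 window holds 1 SOX core on the reverse strand, 147 bases before the start, and the S100b window holds none of the 4 motifs. Over 32851 RefSeq windows of this length, 2.78% hold TGACGTC, 12.4% TATAAA, 10.8% TTTATG and 10.7% ACAATG. Elavl4 has 3 more annotated starts further into the gene, each with 1 TTTATG match. Of these, the windows from 110287528 and from 110287512 overlap and hold the same match. The Tubb3 window holds 2 SOX cores on the reverse strand, 146 and 96 bases before the start. The Chat and Nos1 windows hold none of the motifs. A match describes letters only and does not show binding.

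Ret had the highest single group mean of the 8 genes, in ileum at week 2. In ileum it read 69.4, 39.7 and 47.9 CPM at day 0 and 109, 106 and 118 CPM at week 2, the highest of all groups and clear of the next. At week 3 it read 16.1, 11.4 and 9.5 CPM, and at week 4 10.2, 9.46 and 6.75 CPM. Between week 2 and week 3 it fell by 3.17 ± 0.28 on the log2 scale in ileum (SE, edgeR adjusted p = 1.49e-11). Duodenum followed at lower levels: 39.1, 29.8 and 25.7 CPM at day 0, 52.1, 45.6 and 52.0 CPM at day 2, then 12.6 and 17.0 CPM at day 6. Levels there recovered to 50.4, 39.0 and 37.9 CPM at week 2 before 11.14, 11.02 and 9.73 CPM at week 3, a change of -1.995 ± 0.27 (edgeR adjusted p = 2.83e-07). Week 4 against day 0 gave -2.50 ± 0.28 in duodenum (edgeR adjusted p = 1.50e-09) and -2.57 ± 0.28 in ileum (edgeR adjusted p = 7.79e-10). Ileum and duodenum samples did not overlap from day 0 to week 2, 6 of 8 ages, and overlapped at week 3 and week 4. The mean regional difference was 1.12 ± 0.10 (log2, SE, edgeR adjusted p = 1.53e-12), and the effect of age differed between regions (interaction, edgeR adjusted p = 0.00214). The smaller duodenum change between day 0 and day 8, -0.64 ± 0.26, passed narrowly (edgeR adjusted p = 0.0432). It was lost without duodenum day 0 sample 1 or 2 (adjusted p = 0.221 and 0.063) or duodenum day 8 sample 1, 2 or 3 (adjusted p = 0.06, 0.128 and 0.0878). At week 4 the regional difference of 0.66 ± 0.27 did not pass (adjusted p = 0.0638) but passed without duodenum week 4 sample 2, at 1.11 (adjusted p = 0.00376), and the one at day 0, 0.73 ± 0.26 (adjusted p = 0.085), passed without ileum day 0 sample 2 (adjusted p = 0.0473).

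The genes named here whose 16 group means ran most like Ret were not neuronal. Lgmn, a lysosomal protease, had a Pearson correlation of 0.982 with Ret over the groups, and Clcn6, an endosomal chloride transporter, 0.98, among 12346 genes searched. Lgmn group means in ileum were 1712 CPM at day 0, 2982 at week 2 and 146 at week 3, and in duodenum 604, 769 and 69.99 CPM. Ret correlated at 0.746 with Nos1, 0.505 with Elavl4, 0.485 with Sox10 and 0.212 with Vip. All such points share the same libraries, and they are given as descriptions.

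S100b had the opposite regional order. Duodenum samples read 0.776, 1.5 and 2.33 CPM at day 0 and 15.8, 13.5 and 12.5 CPM at day 2. They stayed at 10.1 to 23.0 CPM through week 2 and dropped to 1.22, 0.698 and 0.539 CPM at week 3. The week 4 samples there read 0.391, 0.25 and 0.106 CPM. Ileum samples never rose above 2.35 CPM, the highest at week 2, and read 0.08, 0.0483 and 0.386 CPM at week 3. Duodenum lay above ileum without overlap at 7 of 8 ages. The rise by day 8 was 3.36 ± 0.40 on the log2 scale in duodenum (SE, edgeR adjusted p = 1.64e-08) and 1.92 ± 0.46 in ileum (edgeR adjusted p = 0.00252). The change from week 2 to week 3 was -4.28 ± 0.42 in duodenum (edgeR adjusted p = 3.54e-10) and -3.55 ± 0.54 in ileum (edgeR adjusted p = 1.99e-06). Between day 0 and week 4 it fell by 2.58 ± 0.47 in duodenum (edgeR adjusted p = 2.47e-05), while the ileum value of -0.68 ± 0.59 did not pass (adjusted p = 0.372). Over all ages ileum minus duodenum was -2.68 ± 0.17 (edgeR adjusted p = 3.42e-16), and the age effect differed between regions (interaction, edgeR adjusted p = 0.00585). The day 0 difference, -1.96 ± 0.46 (adjusted p = 0.00586), was lost without duodenum day 0 sample 3 (adjusted p = 0.114) or ileum day 0 sample 3 (adjusted p = 0.0769).

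S100b did not track Sox10, the other glial gene, with which it correlated at -0.181 over the 16 groups. Its most alike genes were Spon1 (0.958), a matrix protein gene, Ddit4 (0.956), an inhibitor of growth signalling under stress, and Lpar6 (0.948), a lysophosphatidic acid receptor. Of 12 other glial genes tested 10 differed between regions over all ages, 7 higher in ileum and 3 lower, against 31.9% and 30.2% of all genes, with a median log2 difference of 0.66 against 0.08. Gfap was rare, with group means of 0.0158 to 0.2 CPM. In ileum it rose between day 0 and week 4 by 2.99 ± 1.16 (log2, SE, edgeR adjusted p = 0.0353). The 12 glial genes summed to 265.9 to 612.7 CPM in duodenum samples and 213.1 to 535.4 CPM in ileum samples. Most of that sum was Erbb3, with group means from 190.3 to 419.8 CPM. Sox2 and Foxd3 were too low to test.

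Chat rose late in both regions. Duodenum samples read 0.0554, 0.0 and 0.0 CPM at day 0, then 0.704, 0.556 and 0.743 CPM at week 4. Ileum samples read 0.037, 0.0418 and 0.0238 CPM at day 0 and 1.11, 0.465 and 1.40 CPM at week 4. No sample of any earlier age reached 0.5 CPM. Summed counts went from 2 to 68 in duodenum, a ratio of 37.4 (95% interval 9.97 to 315.2, exact, counting error only), and from 3 to 55 in ileum, a ratio of 26.5 (8.61 to 132.6). The test passed in duodenum (edgeR adjusted p = 0.000161) and in ileum (edgeR adjusted p = 0.000143). Week 4 also exceeded day 8, by 3.12 ± 0.84 in duodenum (edgeR adjusted p = 0.00248) and 2.89 ± 0.84 in ileum (edgeR adjusted p = 0.00624), on the log2 scale. Chat did not pass the regional test over all ages: ileum minus duodenum was 0.30 ± 0.35 (edgeR adjusted p = 0.483), with overlap at 7 of 8 ages, and -0.45 without ileum day 6 sample 1. At day 8 against day 0 in duodenum the value of 1.81 ± 1.14 did not pass (adjusted p = 0.212) but passed without duodenum day 0 sample 1, which held both counts of that group (adjusted p = 0.0477).

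Tuft cells, chemosensory cells of the epithelium, also make Chat, and their genes also rose between day 0 and week 4. All 6 of 6 tuft genes were higher at week 4 than at day 0 in each region. Of all genes tested, 20.4% were higher in duodenum and 21.5% in ileum. The tuft genes had median log2 changes of 5.12 in duodenum and 4.53 in ileum, against -0.02 and 0.08 for all genes. Summed over the 6 genes, duodenum samples ran from 1.73 to 3.59 CPM at day 0 and from 60.5 to 78.0 CPM at week 4, and ileum samples from 2.22 to 4.93 and from 32.2 to 93.2 CPM. Trpm5, the tuft cell ion channel, rose by 6.56 ± 0.56 in duodenum (log2, SE, edgeR adjusted p = 3.50e-12) and 4.70 ± 0.51 in ileum (edgeR adjusted p = 7.89e-10). It read 0.0 CPM in its lowest duodenum sample of day 0. By day 8 Trpm5 had risen by 3.93 ± 0.53 in duodenum (edgeR adjusted p = 2.08e-07), where Chat did not pass (adjusted p = 0.212). In ileum neither passed at day 8 (edgeR adjusted p = 0.669 for Trpm5 and 0.243 for Chat). Over all ages Trpm5 was lower in ileum, at -1.44 ± 0.19 (edgeR adjusted p = 2.25e-08). Slc5a7, the choline transporter of cholinergic neurons, had group means of 0.0889 CPM at day 0 and 0.0463 CPM at week 4 in duodenum and 0.189 and 0.356 CPM in ileum. Slc18a3, the vesicular acetylcholine transporter gene nested in Chat, was too low to test. The genes most like Chat over the groups were Mmp7 (0.929), made by Paneth cells, Vav1 (0.905), a signalling gene of blood cells, and H2-Q7 (0.887), a class I histocompatibility gene. The part of tuft cells in the rise of Chat was not tested.

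**Figure D3:**
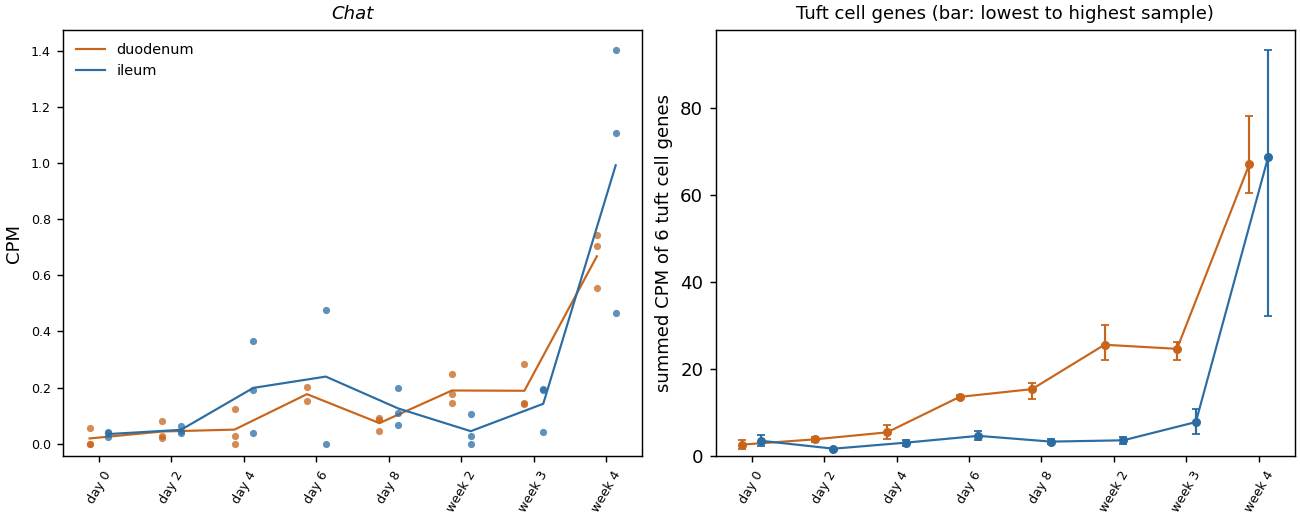
Left, Chat CPM in each sample by age (points, with lines joining group means; orange duodenum, blue ileum); right, mean summed CPM of 6 tuft cell genes with bars from the lowest to the highest sample. Both are highest at week 4, and in duodenum the tuft sum is above its day 0 range from day 4 onward.

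Tubb3 was near the limit of counting, with 1 to 32 counts per sample. In duodenum it read 0.139, 0.0911 and 0.109 CPM at day 0 and 0.573, 0.488 and 0.668 CPM at week 3, its highest group. It was higher at day 8 than at day 0 there by 1.64 ± 0.54 on the log2 scale (SE, edgeR adjusted p = 0.0128), and the value at week 4 of 1.25 ± 0.55 did not pass (adjusted p = 0.0668). Ileum samples read 0.37, 0.251 and 0.356 CPM at day 0 and 0.0543, 0.127 and 0.0981 CPM at week 2, the lowest group mean of the 16. The regional test over all ages did not pass (-0.11 ± 0.19, edgeR adjusted p = 0.631), with ileum above at day 0, duodenum above at week 2 and week 3, and overlap at the other 5 ages. The interaction passed at an adjusted p of 0.0404 in the edgeR test, and the highest value with 1 of the 46 samples left out was 0.0728, without duodenum day 0 sample 2. It did not pass with duodenum and ileum samples of the same age and number treated as pairs. No label says that a number marks an animal. Elavl4 and Tubb3, both read as neuronal genes, correlated at only 0.135 over the groups. Gm20388 spans Tubb3 on the same strand with no exonic base shared.

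Elavl4, Nos1, Vip and Sox10 did move together over the 16 groups. Their pairwise Pearson correlations ran from 0.653 for Nos1 and Vip to 0.849 for Elavl4 and Nos1. The most alike genes outside the 8 were Nipal2 (0.877), the collagen gene Col27a1 (0.864) and the syntaxin gene Stx1a (0.85) for Elavl4. For Nos1 they were Emid1 (0.967), Stx1a (0.966) and Dtx3 (0.958). Vip ran with smooth muscle contractile genes, Acta2 (0.911), Tpm2 (0.902) and Myl9 (0.896), and Sox10 with Map1b (0.908), a microtubule gene of growing neurites, Vim (0.903) and Pdlim7 (0.884). For Tubb3 the values were lower, 0.78 for Rasa3, 0.747 for Spata7 and 0.719 for Gle1.

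**Figure D4:**
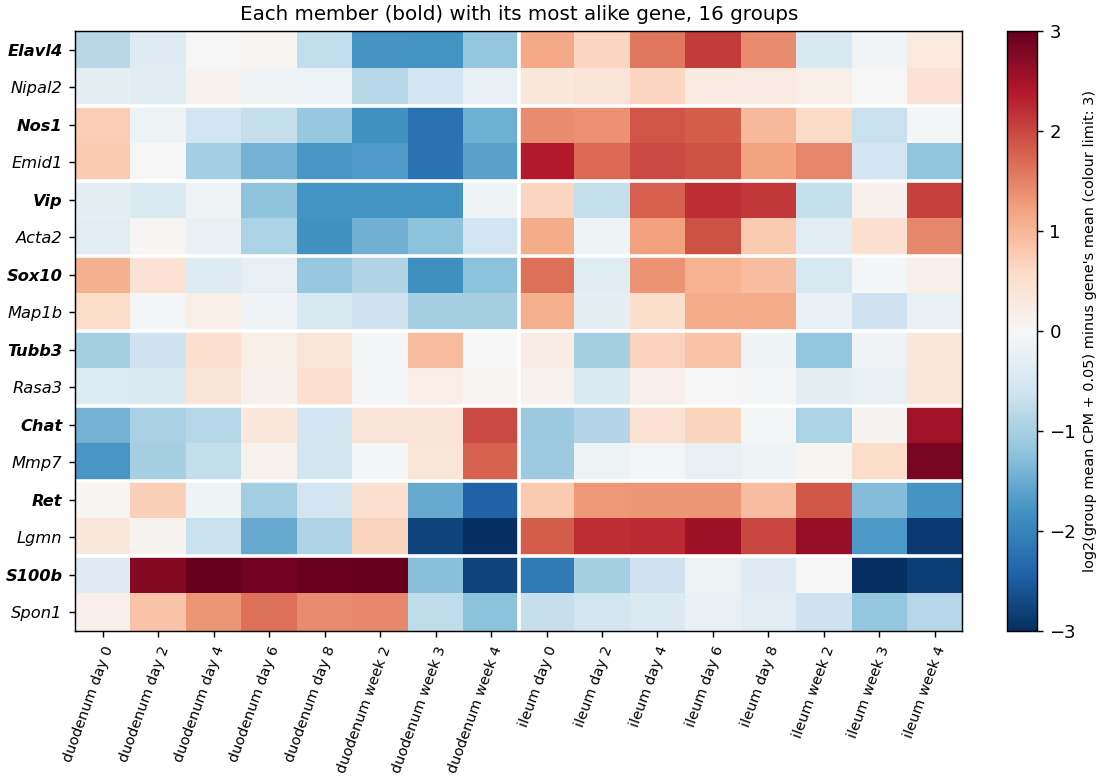
Heat map of each gene (bold) above its most alike gene over 16 groups, duodenum left and ileum right of the white line, as log2(group mean CPM + 0.05) minus the gene's mean over groups, with colours ending at 3 units. Ret and Lgmn share a band that is high in ileum until week 2, S100b and Spon1 one that is high in duodenum from day 2 to week 2, and Chat and Mmp7 peak at week 4.

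Other neuronal genes had the regional order of Elavl4 more often than its reverse. Of 14 further pan-neuronal genes 11 differed between regions over all ages, 8 higher in ileum and 3 lower, with a median log2 difference of 1.11. Over all genes 31.9% were higher and 30.2% lower, with a median of 0.08. Prph, a neuronal intermediate filament, was higher by 2.35 ± 0.32 (SE, edgeR adjusted p = 8.44e-08) and Gap43, a growth cone gene, by 1.93 ± 0.37 (adjusted p = 2.31e-05). Tubb2b (-2.02 ± 0.12) and the neuronal splicing gene Rbfox3 (-1.35 ± 0.24) were higher in duodenum. Among 11 transcription factors of enteric neurons 10 differed, 9 higher in ileum, with Hoxb5, a homeobox gene of the gut's crest cells, at 2.30 ± 0.22 (adjusted p = 3.37e-11). Of 10 other transmitter genes tested 7 differed, 3 higher in ileum, such as the peptide gene Calcb (3.00 ± 0.43), and 4 lower, such as Cartpt (-2.80 ± 0.26).

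By age the neuronal lists had no single direction, and several of their counts lie near the shares of all genes, 20.4% higher and 20.1% lower in duodenum and 21.5% and 20.4% in ileum. Between day 0 and week 4 in duodenum, 3 of 14 pan-neuronal genes rose and 5 fell. The rises included Nefh (1.67 ± 0.52, edgeR adjusted p = 0.00964) and Tubb2b (0.92 ± 0.31, adjusted p = 0.0173). The falls included Stmn2 (-3.75 ± 0.83, edgeR adjusted p = 0.000342) and Dcx (-3.54 ± 1.18, adjusted p = 0.0148), both genes of young neurons. In ileum 1 of 14 fell and 0 rose, Uchl1, a neuronal ubiquitin hydrolase, at -1.63 ± 0.60 (adjusted p = 0.0284). Among 15 genes of synaptic vesicle release 1 rose and 3 fell in duodenum, and 1 rose and 2 fell in ileum. The glial list had 3 rises and 3 falls of 12 in duodenum, and 3 rises and 4 falls in ileum. Nes, an intermediate filament of neural progenitors that other young cells also make, fell by 6.48 ± 0.40 in duodenum (log2, edgeR adjusted p = 5.93e-16) and fell by 5.49 ± 0.36 in ileum (adjusted p = 3.44e-15). Cnp, of the same list, rose by 2.01 ± 0.21 in duodenum (edgeR adjusted p = 4.56e-10) and 2.00 ± 0.21 in ileum (adjusted p = 6.52e-10).

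The signals that act on Ret and on neural crest cells held both rises and falls. In the list of GDNF and endothelin signalling, 3 of 14 genes rose and 5 fell in duodenum between day 0 and week 4, and 3 rose and 4 fell in ileum. The rises are near the shares of all genes (20.4% in duodenum and 21.5% in ileum), and 20.1% and 20.4% of all genes fell. Edn3, the ligand that keeps crest progenitors from early differentiation, rose by 7.36 ± 0.45 in duodenum (log2, SE, edgeR adjusted p = 4.45e-16) and by 7.43 ± 0.43 in ileum (adjusted p = 6.61e-17), from group means of 0.128 and 0.318 CPM to 22.2 and 57.1 CPM. Its receptor Ednrb went the other way, from 35.5 to 1.35 CPM in duodenum and from 30.9 to 2.25 CPM in ileum (-4.73 ± 0.54 and -3.79 ± 0.53, adjusted p = 6.92e-09 and 2.85e-07). Gdnf, the ligand of Ret, fell in ileum from 0.805 to 0.113 CPM (-2.54 ± 0.70, adjusted p = 0.00336). Gfra1, its co-receptor, had group means of 0.232 to 1.66 CPM in any group, far under those of Ret. On the receiving side, 11 receptor and target genes of these transmitters held 3 rises and 5 falls in duodenum and 2 rises and 4 falls in ileum. Among the rises, the Vip receptor gene Vipr1 gained 1.22 ± 0.21 in duodenum (log2, edgeR adjusted p = 1.37e-05). Chrnb4 rose by 0.85 ± 0.34 in duodenum and 1.05 ± 0.33 in ileum (edgeR adjusted p = 0.0436 and 0.00942). Chrm3 rose by 0.94 ± 0.23 in ileum (edgeR adjusted p = 0.000832). Chrm2, a muscarinic receptor of muscle, fell by 3.80 ± 0.70 in duodenum (log2, edgeR adjusted p = 2.66e-05) and fell by 2.70 ± 0.65 in ileum (adjusted p = 0.000919). Gucy1b1, a subunit of the nitric oxide receptor, fell by 3.47 ± 0.55 in duodenum and fell by 1.86 ± 0.51 in ileum (adjusted p = 2.23e-06 and 0.00299).

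By position on GRCm38 (GENCODE M21), Ret lies at 6:118151745-118197718 on the minus strand, Elavl4 at 4:110203722-110351909 (minus), Tubb3 at 8:123411424-123422015 (plus) and Chat at 14:32408203-32465989 (minus). Nos1 lies at 5:117781032-117958840 (plus), Vip at 10:5639218-5647617 (plus), Sox10 at 15:79154908-79165240 (minus) and S100b at 10:76253853-76261159 (plus). Values count reads over all exons of each protein-coding gene, and its isoforms were summed. Vip and S100b share chromosome 10, and no other pair of the 8 shares a chromosome.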

How the data were processed

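The authors deposited estimated counts per gene from tximport, named so by the file itself, as whole numbers for 48 samples, made with STAR 2.6.1d, Salmon 0.14.2 and mm10 per the submitters' processing notes, which give no role or order. They also deposited a normalized signal for 40 of the samples, with DESeq2 1.30.1 named in the same notes, and each column of it equalled the counts divided by 1 factor. Symbols came from those tables for 51106 of 54532 identifiers.

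The tests on these counts used edgeR 4.0.16 (R 4.3.3, filterByExpr, TMM scaling, trended dispersion, robust quasi-likelihood fit) on 46 samples in 16 groups, with Benjamini-Hochberg adjustment over 21986 genes and calls under an adjusted p of 0.05 in 15 comparisons. The fit shares 1 spread over groups of 2 or 3. CPM are after TMM scaling, and log2 CPM used a prior count of 2. Standard errors come from the log2 fold change and its F statistic. Correlations compare 16 group means, for genes with mean log2 CPM of at least 1. The script was tested on simulated data. Exonic lengths, positions and overlaps came from GENCODE M21 (54495 identifiers matched).

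Named genes are the 8 members, the 2 largest called rises and falls of each of 16 lists (168 entries) at week 4 against day 0 and between regions, the 3 most alike genes of each member, and Pdx1 and Fabp6. Gfap, Gfra1, Slc5a7, Slc18a3, Ano1, Gdnf, Chrm2, Trpm5 and Actg2 were named by that rule or afterwards, as defining markers. Some genes that the rule names are not reported here. Members and lists were chosen with earlier results of these data known. Depth limits the rare genes: intervals and floors of 3 counts cover counting error only. Alternatives were DESeq2 1.42.0, RLE size factors, no filter, a mean count of at least 10, fewer or more samples, a replicate block, limma 3.58.1 on log2 of the deposited signal plus 1 or 0.1 (age effects within a region only, since the tables were scaled separately), and each sample left out. Lists of other tissues were counted between regions too, where 31.9% of all genes tested were higher in ileum and 30.2% lower. Of 9 acinar genes 7 were lower in ileum, of 5 red blood cell genes 5 were lower, and of 10 enteroendocrine genes 6 were lower. Of 5 islet genes 1 was higher and 1 lower, and of 4 adipocyte genes 1 was higher and 1 lower, not above those shares.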

Additional observations from a re-analysis of the deposited data

Results flagged for a closer look

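For 4 of the 8 genes the effect of age differed between ileum and duodenum by a test of the difference itself (edgeR, interaction of region and age over 8 ages). Ret had an adjusted p of 0.00214: its ileum mean was 76.5 CPM at day 6, when the duodenum mean was 14.8, and the regions met at 12.3 and 10.6 CPM at week 3. S100b had an adjusted p of 0.00585, with duodenum means of 13.9 to 18.3 CPM from day 2 to week 2 beside ileum means of 0.99 to 1.99 CPM. For Vip the adjusted p was 0.0184, with 0 counts in duodenum at day 8, week 2 and week 3 and 58, 7 and 9 in ileum. Tubb3 had 0.0404 in the same edgeR test, with means of 0.576 CPM in duodenum and 0.249 CPM in ileum at week 3 and of 0.113 and 0.325 CPM at day 0. Without duodenum day 0 sample 2 that of Tubb3 was 0.0728. The Tubb3 interaction also did not pass with duodenum and ileum samples of the same age and number treated as pairs. With all 48 samples under their labels the adjusted p was 0.552 for Ret, 0.174 for Vip and 0.112 for Tubb3.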

How the results depend on the processing

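Beside main counts of 2, 1, 4, 2, 3 and 4 genes called of the 8 members, the following moved by over 1.5 times. With a mean count of at least 10, which tests fewer genes, Chat and Vip were not tested and so count as not called. Week 4 against day 0 in ileum then gave 1 and week 4 against day 8 in duodenum gave 2. With all 48 samples under their labels, day 8 against day 0 in ileum gave 0, ileum against duodenum gave 0 at day 0 and 0 at week 4, and the interaction gave 1. With only the compared groups in the fit, ileum against duodenum gave 1 at day 0 and 0 at week 4. Without the low-count filter it gave 1 at week 4. Leaving out 1 sample gave 1 to 2 at day 0 and 0 to 4 at week 4. For changes other than those with a mean count of at least 10, the cause was not tested. No called value turned its direction under any of these alternatives.

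Uncalled values near 0 did turn, on the log2 scale. Elavl4 at day 8 against day 0 in duodenum (0.011) was -0.059 with RLE, -0.042 with a mean count of at least 10, -0.018 without the day 4 samples, -0.019 with only the compared groups, -0.049 with DESeq2, and -0.25 to 0.73 with 1 sample left out. Chat at week 3 against week 2 in duodenum (-0.00170) was 0.0168 with RLE, 0.0118 with no filter, 0.000615 with all 48, 0.0507 without the day 4 samples, 0.0165 with DESeq2, and -0.41 to 0.22 with 1 sample left out. Vip at week 4 against day 8 in ileum (0.015) was -0.12 with the replicate block, -0.014 with DESeq2 and -1.37 to 0.47 with 1 sample left out. Leaving out 1 sample also turned Elavl4 in duodenum at week 4 against day 0 (-0.87 to 0.34) and at week 3 against week 2 (-0.49 to 0.38), and in ileum at day 8 against day 0 (-0.014 to 0.71). It turned Tubb3 in ileum at week 4 against day 0 (-0.23 to 0.36) and between regions at week 4 (-0.021 to 0.60), Ret in ileum at day 8 against day 0 (-0.031 to 0.39), Nos1 (-1.004 to 0.15) and Sox10 (-0.48 to 0.27) in duodenum at week 4 against day 8, Chat between regions over all ages (-0.45 to 0.62) and S100b between regions at week 4 (-0.41 to 0.39).

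Samples with the same number in a region and age pair did not deviate together in every pair: over 23 pairs the correlation of deviations ran from -0.363 to 0.672, with 16 over 0.1. The labels do not say that a number marks an animal. The replicate block changed 4 calls of members: Ret at day 8 against day 0 in duodenum (adjusted p = 0.0563), Nos1 (adjusted p = 0.0894) and Ret (adjusted p = 0.0367) between regions at week 4, and the interaction of Tubb3 (adjusted p = 0.0968).

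Counts of all genes called also moved: 4234 in ileum at day 8 against day 0 (2639 without ileum day 8 sample 1), 1342 between regions at day 0 (484 without ileum day 0 sample 1, 2419 without the day 4 samples), 6234 at week 4 (2491 with only the compared groups) and 4930 for the interaction (947 with all 48, 9512 without the day 4 samples).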

Other observations

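Genes of the endocrine epithelium, which share many neuronal genes such as those of vesicle release, had another regional order than Elavl4, Nos1 and Vip. Of 10 enteroendocrine genes 6 were lower in ileum over all ages and 0 higher, with a median log2 difference of -0.36. Of all genes tested 30.2% were lower and 31.9% higher. Chgb, a granin of secretory vesicles, had group means of 174.8 to 393.8 CPM in duodenum and 116.0 to 161.3 CPM in ileum (-0.92 ± 0.08, SE, edgeR adjusted p = 2.16e-12). Nkx2-2, an endocrine transcription factor, was lower in ileum by a difference of -1.13 ± 0.12 (adjusted p = 1.21e-10). Among 15 genes of synaptic vesicle release 11 differed between regions, 9 higher in ileum and 2 lower, against 62.1% of all genes. Stx1a was higher in ileum by 1.24 ± 0.11.

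Tac1, which encodes substance P and is made by both enteric neurons and endocrine cells, rose by 1.48 ± 0.25 in duodenum (log2, SE, edgeR adjusted p = 6.54e-06) and 2.23 ± 0.26 in ileum (adjusted p = 3.33e-09) between day 0 and week 4. L1cam, a cell adhesion gene of crest cell migration, rose by 4.64 ± 0.38 in duodenum (adjusted p = 9.08e-13) and 4.68 ± 0.38 in ileum (adjusted p = 4.91e-13), from 1.205 to 31.0 CPM and from 1.79 to 45.6 CPM. Kit, the receptor of interstitial cells of Cajal and of mast cells, rose by 0.89 ± 0.21 and 1.29 ± 0.21 (adjusted p = 0.000624 and 2.76e-06).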
